A study of Homo sapiens with 14 samples.

Results

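The human mitochondrial genome is a circle of 16569 bases with 37 genes, and the transcripts of these 37 genes are described here one by one. They are 13 protein-coding genes, 2 rRNAs (RNR1 and RNR2) and 22 tRNAs. The protein-coding genes are called mRNAs below, with counts taken per gene, also where genes overlap. All were taken by name, or by NCBI gene number where a table held no names, from the 27819 genes listed in all 4 of the count tables. CWR22Rv1, an established line of human prostate cancer, gave all 14 RNA-seq libraries after 72 h with the vehicle DMSO (3 libraries), 30 µM Fucotrim I (3 libraries), 60 µM Fucotrim II (2 libraries), 100 µM SGN-2FF (3 libraries) or 2 µM P-SiaFNEtoc (3 libraries). Fucotrim I, Fucotrim II and SGN-2FF are metabolic inhibitors of fucosylation and P-SiaFNEtoc is an inhibitor of sialylation. No gene was altered in any group, and the same DMSO libraries serve as the control for every inhibitor. The doses differ between the inhibitors, so their values are set side by side and are not compared with one another.

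Mitochondrial DNA is transcribed on both strands into long RNAs that carry many genes each, and the tRNAs between the other genes mark the places where these RNAs are cut. Most genes, among them both rRNAs and 12 mRNAs, are transcribed from the heavy strand. ND6 and 8 tRNAs (TRNQ, TRNA, TRNN, TRNC, TRNY, TRNS1, TRNE and TRNP) are transcribed from the light strand. The mRNAs encode subunits of respiratory complexes I, III and IV and of the ATP synthase, while the rRNAs and tRNAs serve the mitochondrial ribosome. In prostate epithelium, mitochondria are known for their unusual citrate metabolism.

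The sequences below show places where genes are short, overlap or lie close together, and whether this layout bears on the counts was not tested. They were read from chromosome M of hg38, the build the authors mapped to, and the positions of all 37 genes were the same in GENCODE and RefSeq. The tRNA genes are 59 to 75 bases long, which is shorter than the 100-base reads. 5 tRNA genes are shown because they had the most counts or passed the filter with most inhibitors, each 5′ to 3′ on its own strand with its anticodon in capitals.
TRNY, tRNA for tyrosine, chrM:5826-5891, minus strand of the reference: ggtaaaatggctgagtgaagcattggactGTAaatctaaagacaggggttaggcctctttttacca
TRNC, tRNA for cysteine, chrM:5761-5826, minus strand: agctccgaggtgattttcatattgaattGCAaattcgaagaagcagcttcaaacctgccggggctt
TRNP, tRNA for proline, chrM:15956-16023, minus strand: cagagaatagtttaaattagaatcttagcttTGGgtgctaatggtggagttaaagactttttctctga
TRNF, tRNA for phenylalanine, chrM:577-647, plus strand: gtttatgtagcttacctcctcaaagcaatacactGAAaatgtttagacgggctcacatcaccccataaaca
TRNL1, tRNA for leucine, chrM:3230-3304, plus strand: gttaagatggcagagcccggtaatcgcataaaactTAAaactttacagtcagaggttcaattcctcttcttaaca

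TRNC and TRNY share 1 base, and only 12 bases lie between TRNY and COX1, the gene of a core subunit of complex IV on the opposite strand. These 12 bases are in capitals, with the last 20 reference bases of TRNY before them and the first 20 of COX1 after them.
TRNY to COX1, chrM:5872-5923, plus strand: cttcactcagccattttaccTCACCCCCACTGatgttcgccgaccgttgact
ATP8 and ATP6, which encode membrane subunits of the ATP synthase, overlap by 46 bases, shown in capitals.
ATP8 and ATP6 overlap, chrM:8512-8587, plus strand: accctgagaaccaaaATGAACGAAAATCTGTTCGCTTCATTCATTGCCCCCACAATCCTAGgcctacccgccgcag
ND5 ends directly before the end of ND6, which is read on the other strand. The last 30 bases of ND5 are in capitals.
ND5 to ND6, chrM:14119-14178, plus strand: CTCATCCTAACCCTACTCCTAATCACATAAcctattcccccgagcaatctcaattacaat

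The libraries held 12553094 to 19981314 counts on genes, and the lowest count on a mitochondrial mRNA or rRNA in any library was 10020. The cells are labelled CWR22Rv1, and they were described with a list of luminal prostate markers. All 9 markers of the list were detected in every library, for example KLK3 at 27.5 to 79.2 CPM (CPM, counts scaled to the same library total for all libraries by the TMM method). Of the 6 markers of blood, endothelial and stromal cells, CD3E had 0 counts throughout, PTPRC at most 3, PECAM1 at most 1, COL1A2 at most 3 and DCN at most 13, while COL1A1 was at 15.9 to 29.2 CPM. Of the luminal markers 8, 8, 8 and 6 were called higher with Fucotrim I, Fucotrim II, SGN-2FF and P-SiaFNEtoc by the test below and 0 lower, where 21.6%, 25.6%, 11.5% and 9.02% of all genes tested were called higher. Their median log2 fold change was 0.73, 0.59, 0.45 and 0.32, and whether this bears on the mitochondrial genes was not tested. COL1A1, the one tested marker of other cells, was called higher with Fucotrim II only, at a log2 fold change of 0.59. The study's methods call the libraries of a group biological repeats, and the p-values measure the spread between them. Those methods give 3 repeats per condition, while the deposited data hold 2 libraries of Fucotrim II.

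The share of all gene counts that fell on the 37 mitochondrial genes was higher with the 3 fucosylation inhibitors than in DMSO. It was 6.05%, 7.03% and 5.98% in the DMSO libraries. With Fucotrim I it was 8.67%, 11.9% and 14.2%, and with Fucotrim II 17.0% and 12.2%. With SGN-2FF it was 8.27%, 8.27% and 8.69%. All libraries of these 3 inhibitors lay above all DMSO libraries, while the libraries of Fucotrim I and Fucotrim II were also far apart from each other within their groups. The means were 6.36% ± 0.587 (SD, n = 3) in DMSO, 11.6% ± 2.80 (SD, n = 3) with Fucotrim I, 14.6% ± 3.45 (SD, n = 2) with Fucotrim II and 8.41% ± 0.238 (SD, n = 3) with SGN-2FF. P-SiaFNEtoc libraries were at 6.11%, 6.83% and 6.64%, within the range of DMSO.

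In the two-sided exact permutation test over libraries, p was 0.1 for Fucotrim I and for SGN-2FF, the smallest value 3 libraries against 3 can give, and 0.2 for Fucotrim II, the smallest that 2 against 3 can give. For P-SiaFNEtoc the same exact test gave p = 0.8. After Benjamini-Hochberg adjustment over the 12 tests of this share and of the ND6 and rRNA ratios given below, the exact p-values were 0.3, 0.3, 0.3 and 0.873 for Fucotrim I, Fucotrim II, SGN-2FF and P-SiaFNEtoc. A share cannot tell more mitochondrial RNA per cell from less nuclear RNA per cell.

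**Figure D1:**
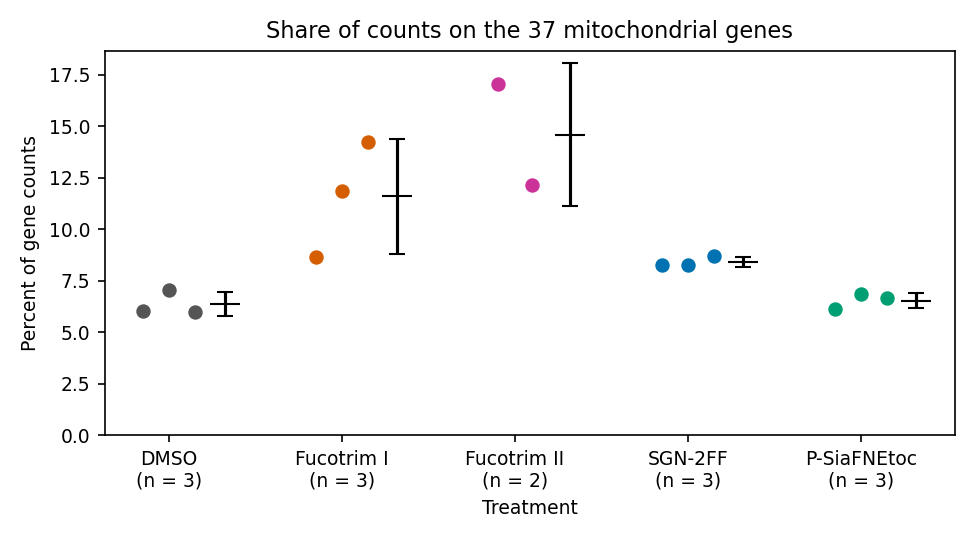
Percent of all gene counts on the 37 mitochondrial genes (y axis) for each treatment (x axis). Each coloured point is 1 library and the black bars are the mean ± SD. The 3 DMSO libraries lie between 5.98% and 7.03%, and the 2 Fucotrim II libraries at 17.0% and 12.2%.

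Of the 37 genes, 20 passed the filter on low counts with Fucotrim I, 22 with Fucotrim II, 20 with SGN-2FF and 19 with P-SiaFNEtoc. The 13 mRNAs and 2 rRNAs passed in every case and the remaining ones are tRNAs. Genes are called higher or lower at an adjusted p-value under 0.05 in edgeR's quasi-likelihood test over all genes. Some tRNAs reached the filter's minimum only through treated libraries, namely TRNL1 with the 3 fucosylation inhibitors, TRNF with Fucotrim I, SGN-2FF and P-SiaFNEtoc, and TRNH and TRNM with Fucotrim II. They are left out of the counts of this paragraph, which cover the 18, 19, 18 and 18 genes that reached it in DMSO alone for Fucotrim I, Fucotrim II, SGN-2FF and P-SiaFNEtoc. With Fucotrim I, 13 of these 18 rose and 0 fell, against 21.6% of all genes tested called higher and 22.1% called lower. With Fucotrim II all 19 rose, against 25.6% of all genes called higher and 25.7% called lower. With SGN-2FF 17 of 18 rose and 0 fell, against 11.5% and 9.08%. With P-SiaFNEtoc 1 gene rose and 1 fell, against 9.02% and 7.33%. The median log2 fold change of these genes was 1.00, 1.43, 0.45 and 0.04, while over all genes it was between 0.0004 and 0.0075. Treated libraries had a CPM above every DMSO library for 18 of 18 with Fucotrim I (25.6% of all genes), 19 of 19 with Fucotrim II (33.5%) and 17 of 18 with SGN-2FF (18.6%). The 37 genes share libraries and long precursor RNAs and are not independent of one another.

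The Fucotrim I calls rest on few libraries. There were 15 calls when TRNF and TRNL1 are counted. Leaving out DMSO replicate 1 left 3 of them, namely TRNC, TRNP and TRNL1, and thus none of the mRNAs. TRNL1 reached the filter's minimum only through treated libraries. Leaving out DMSO replicate 2 left 7, DMSO replicate 3 left 4 and Fucotrim I replicate 2 left 7. No fold change of any member turned negative. With SGN-2FF, a single fit of all 14 libraries called 2 members higher, in place of 19 with TRNF and TRNL1 included.

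**Figure D2:**
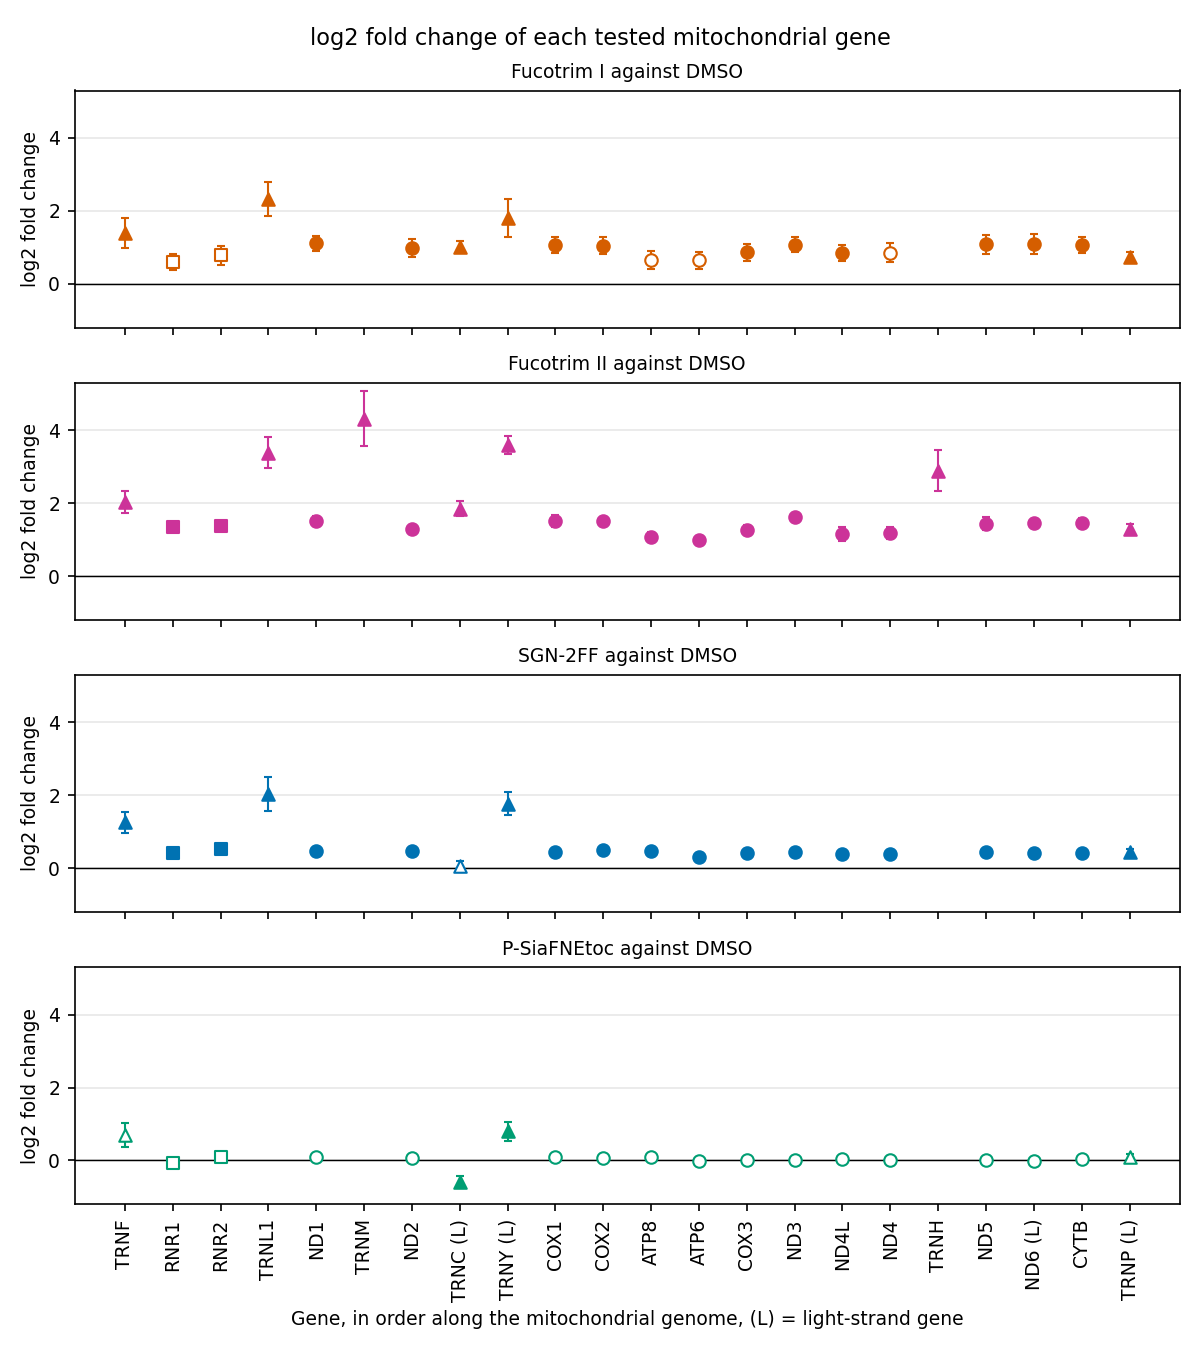
Log2 fold change against DMSO (y axis) with its standard error for every mitochondrial gene tested, in the order of the genome (x axis), with 1 panel per inhibitor. Circles are mRNAs, squares rRNAs and triangles tRNAs, and filled symbols passed the test. TRNL1, TRNH and TRNM, and TRNF except with Fucotrim II, reached the filter's minimum only through treated libraries. Filled symbols of these tRNAs are therefore not to be read as test results. The mRNAs lie between 0.65 and 1.11 with Fucotrim I, between 0.98 and 1.62 with Fucotrim II, between 0.32 and 0.49 with SGN-2FF and between -0.02 and 0.10 with P-SiaFNEtoc, and TRNY lies above the mRNAs in every panel.

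The 7 complex I subunits of the mitochondrial genome rose with Fucotrim II and SGN-2FF, and all but ND4 did so with Fucotrim I. ND1 (chrM:3307-4262), the first mRNA after the rRNAs, was at 2690, 3120 and 2680 CPM in DMSO, 4680, 5930 and 7650 with Fucotrim I, 9370 and 6820 with Fucotrim II, 3860, 3810 and 4010 with SGN-2FF and 2760, 3090 and 3150 with P-SiaFNEtoc. Its log2 fold changes were 1.11, 1.51 and 0.47 with Fucotrim I, Fucotrim II and SGN-2FF, or 2.15, 2.85 and 1.39-fold. The adjusted p-values from edgeR were 0.0156, 3.17e-05 and 2.08e-05.

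ND2 (chrM:4470-5511) was at 2140, 2590 and 2220 CPM in DMSO, 3280, 4600 and 5780 with Fucotrim I, 6520 and 4780 with Fucotrim II, 3170, 3120 and 3320 with SGN-2FF and 2230, 2520 and 2600 with P-SiaFNEtoc. ND3 (chrM:10059-10404), a short gene, was at 685, 816 and 715 CPM in DMSO, 1200, 1550 and 1910 with Fucotrim I, 2600 and 1970 with Fucotrim II, 981, 964 and 1050 with SGN-2FF and 705, 727 and 783 with P-SiaFNEtoc. For both genes every library of the 3 fucosylation inhibitors lay above all DMSO libraries. The log2 fold change of ND3 with Fucotrim II was 1.62, with a standard error of 0.12. ND4L (chrM:10470-10766) was at 1100, 1330 and 1100 CPM in DMSO, 1540, 2180 and 2610 with Fucotrim I, 3290 and 1940 with Fucotrim II, 1550, 1450 and 1620 with SGN-2FF and 1130, 1280 and 1240 with P-SiaFNEtoc. ND4 (chrM:10760-12137), which overlaps ND4L by 7 bases, was at 9320, 11300 and 9200 CPM in DMSO, 12500, 18200 and 22700 with Fucotrim I, 26600 and 18400 with Fucotrim II, 12900, 12500 and 13300 with SGN-2FF and 9160, 10600 and 10400 with P-SiaFNEtoc. Among the Fucotrim I libraries, replicate 1 lay closest to DMSO for both, and the log2 fold change of 0.85 of ND4 with Fucotrim I missed the threshold (standard error 0.26, adjusted p = 0.0603 from edgeR).

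ND5 (chrM:12337-14148) was at 3960, 4680 and 3840 CPM in DMSO, 6180, 8950 and 11400 with Fucotrim I, 13900 and 8570 with Fucotrim II, 5550, 5440 and 5880 with SGN-2FF and 3790, 4510 and 4290 with P-SiaFNEtoc. ND6 (chrM:14149-14673), the one mRNA from the light strand, was at 1130, 1340 and 1140 CPM in DMSO, 1730, 2610 and 3360 with Fucotrim I, 3810 and 2780 with Fucotrim II, 1590, 1520 and 1660 with SGN-2FF and 1080, 1260 and 1230 with P-SiaFNEtoc. For both genes every library of the 3 fucosylation inhibitors was above DMSO. In the order Fucotrim I, Fucotrim II, SGN-2FF, the log2 fold changes of ND5 were 1.09, 1.43 and 0.45 and those of ND6 were 1.10, 1.45 and 0.41. Leaving out single libraries or choosing other settings moved ND6 between 0.86 and 1.32 with Fucotrim I.

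CYTB (chrM:14747-15887), the mitochondrial subunit of complex III, also rose with the 3 fucosylation inhibitors. It was at 3720, 4410 and 3680 CPM in DMSO, 6300, 8050 and 10300 with Fucotrim I, 12400 and 9100 with Fucotrim II, 5290, 5200 and 5320 with SGN-2FF and 3660, 4240 and 4190 with P-SiaFNEtoc. Its log2 fold changes were 1.06, 1.45 and 0.43 with Fucotrim I, Fucotrim II and SGN-2FF.

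The 3 complex IV subunits also rose with all 3 fucosylation inhibitors. COX1 (chrM:5904-7445), the catalytic core, held more counts than any other member and was at 10700, 12200 and 10400 CPM in DMSO, 17200, 23800 and 28900 with Fucotrim I, 38300 and 25300 with Fucotrim II, 15000, 14900 and 15600 with SGN-2FF and 10900, 12600 and 12000 with P-SiaFNEtoc. COX2 (chrM:7586-8269) was at 6990, 7900 and 6800 CPM in DMSO, 10900, 14800 and 19000 with Fucotrim I, 22900 and 18200 with Fucotrim II, 10100, 9960 and 10200 with SGN-2FF and 7080, 7760 and 7810 with P-SiaFNEtoc. COX3 (chrM:9207-9990) was at 4880, 5560 and 4750 CPM in DMSO, 6770, 9430 and 11300 with Fucotrim I, 14000 and 10300 with Fucotrim II, 6520, 6550 and 7030 with SGN-2FF and 4750, 5260 and 5280 with P-SiaFNEtoc. The 3 genes ordered the Fucotrim libraries alike, with Fucotrim II replicate 1 highest and Fucotrim I replicate 1 lowest among the Fucotrim libraries. The log2 fold changes of COX1, COX2 and COX3 were 1.07, 1.05 and 0.86 with Fucotrim I, 1.51, 1.50 and 1.26 with Fucotrim II, and 0.46, 0.49 and 0.41 with SGN-2FF.

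ATP6 and ATP8 had the smallest log2 fold changes of the mRNAs with both Fucotrim inhibitors when all libraries were used, and without Fucotrim II replicate 1 that of ND4L (0.72) was below those of ATP6 (0.74) and ATP8 (0.77). ATP6 (chrM:8527-9207) was at 4040, 4810 and 4080 CPM in DMSO, 4910, 6960 and 8340 with Fucotrim I, 9790 and 7210 with Fucotrim II, 5200, 5160 and 5610 with SGN-2FF and 3910, 4350 and 4470 with P-SiaFNEtoc. ATP8 (chrM:8366-8572) was at 715, 827 and 734 CPM in DMSO, 852, 1190 and 1540 with Fucotrim I, 1890 and 1300 with Fucotrim II, 1040, 1030 and 1070 with SGN-2FF and 729, 838 and 847 with P-SiaFNEtoc. All Fucotrim I libraries were above DMSO for both genes, and yet the log2 fold changes of 0.65 and 0.66 with Fucotrim I missed the threshold (adjusted p = 0.0888 and 0.103 from edgeR). With Fucotrim II both rose, by 0.98 and 1.07 in log2 fold change, and SGN-2FF gave 0.32 and 0.47, which also passed.

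The rRNAs carry only short poly(A) tails, and the libraries were made with a kit for mRNA. RNR1 (chrM:648-1601), the 12S rRNA of the small ribosomal subunit, was at 735, 732 and 628 CPM in DMSO, 816, 978 and 1370 with Fucotrim I, 2000 and 1530 with Fucotrim II, 878, 1000 and 894 with SGN-2FF and 671, 678 and 658 with P-SiaFNEtoc. RNR2 (chrM:1671-3229), the 16S rRNA of the large subunit, was at 6010, 6610 and 5690 CPM in DMSO, 7350, 10400 and 13600 with Fucotrim I, 18700 and 12900 with Fucotrim II, 8580, 8890 and 8770 with SGN-2FF and 6160, 6740 and 6590 with P-SiaFNEtoc. Both were above DMSO in every library of the 3 fucosylation inhibitors. With Fucotrim I the log2 fold changes of 0.59 and 0.78 missed the threshold (adjusted p = 0.104 and 0.0732 from edgeR), with Fucotrim II they were 1.33 and 1.37 and with SGN-2FF 0.42 and 0.53, and those 4 passed.

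With P-SiaFNEtoc none of the 13 mRNAs and 2 rRNAs passed the test. Their log2 fold changes lay between -0.06 for RNR1 and 0.10 for COX1, with standard errors of 0.0476 to 0.0855 and adjusted p-values from edgeR of 0.223 and above. For each of the 15 genes the libraries overlapped those of DMSO. A p-value above the threshold does not show that these levels were equal.

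To ask whether all transcripts moved by one factor, each gene was also expressed relative to the summed counts on the 12 heavy-strand mRNAs of the same library, a measure that needs no scaling between libraries. The share of ATP6 was at 7.93, 8.08 and 8.12 percent in DMSO, 6.43, 6.59 and 6.35 with Fucotrim I, 6.06 and 6.33 with Fucotrim II, 7.31, 7.37 and 7.58 with SGN-2FF and 7.7, 7.52 and 7.84 with P-SiaFNEtoc. In each comparison the treated libraries lay entirely below DMSO, and the comparisons share the DMSO libraries. The mean was 8.04% ± 0.102 (SD, n = 3) in DMSO, 6.45% ± 0.121 (SD, n = 3) with Fucotrim I, 6.19% ± 0.190 (SD, n = 2) with Fucotrim II, 7.42% ± 0.143 (SD, n = 3) with SGN-2FF and 7.69% ± 0.157 (SD, n = 3) with P-SiaFNEtoc. On the log2 scale the share differed from DMSO by -0.32, -0.38, -0.12 and -0.07, and leaving out any single library kept each of these below 0. The two-sided exact permutation p was 0.1 for the 3 comparisons of 3 libraries against 3 and 0.2 for Fucotrim II, the smallest these designs can give, so that no share compared here could pass a threshold of 0.05.

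The counts on ATP8, the overlapping neighbour of ATP6, did not follow those on ATP6 in each case. The share of ATP8 was at 1.4, 1.39 and 1.46 percent in DMSO, 1.12, 1.12 and 1.17 with Fucotrim I, 1.17 and 1.14 with Fucotrim II, 1.46, 1.46 and 1.45 with SGN-2FF and 1.44, 1.45 and 1.49 with P-SiaFNEtoc. It lay below DMSO with both Fucotrim inhibitors (-0.32 and -0.29 on the log2 scale) and overlapped DMSO with SGN-2FF and P-SiaFNEtoc (0.04 and 0.04). ATP8 had 0.172 to 0.180 counts per count of ATP6 in DMSO, 0.171 to 0.185 with Fucotrim I, 0.181 and 0.193 with Fucotrim II, 0.191 to 0.199 with SGN-2FF and 0.186 to 0.193 with P-SiaFNEtoc. The last 3 lay above DMSO without overlap (exact permutation p = 0.2, 0.1 and 0.1). Reads within the 46 shared bases can be given to either gene or to none by the counting. Counts per gene do not show whether reads of ATP8 and ATP6 come from the same RNA.

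The shares of the heavy-strand mRNAs add up to the whole in each library, so lower shares of some mean higher shares of others. ND1 lay on the other side of DMSO. Its share was at 5.27, 5.24 and 5.35 percent in DMSO, 6.13, 5.61 and 5.82 with Fucotrim I, 5.79 and 5.99 with Fucotrim II, 5.43, 5.45 and 5.41 with SGN-2FF and 5.43, 5.36 and 5.53 with P-SiaFNEtoc. Every treated library was above the DMSO libraries in all 4 comparisons, by 0.15, 0.16, 0.04 and 0.04 on the log2 scale (exact permutation p = 0.1, or 0.2 for Fucotrim II). These comparisons share the DMSO libraries and are not independent. With P-SiaFNEtoc the lowest share was 5.357 percent, just above the highest of 5.348 in DMSO. COX1 had a share of 20.8% ± 0.282 (SD, n = 3) in DMSO and of 22.4% ± 0.301 (SD, n = 3) with Fucotrim I, and its libraries were also above DMSO with Fucotrim II. COX3, ND4 and ND4L were below DMSO with both Fucotrim inhibitors. The share of ND4 was 18.5% ± 0.355 (SD, n = 3) in DMSO and 17.0% ± 0.508 (SD, n = 3) with Fucotrim I, a difference of -0.12 on the log2 scale.

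Counting all 13 mRNAs and 2 rRNAs, the share of a gene lay entirely above or entirely below DMSO for 13 of 15 genes with Fucotrim I (6 above and 7 below), 12 with Fucotrim II (6 and 6), 6 with SGN-2FF (4 and 2) and 4 with P-SiaFNEtoc (1 and 3). Over all genes tested, nuclear ones included, the same count was 77.9%, 90.8%, 72.8% and 13.1%. The median log2 fold change of all genes on this scale was -0.91, -1.32, -0.43 and -0.05.

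**Figure D3:**
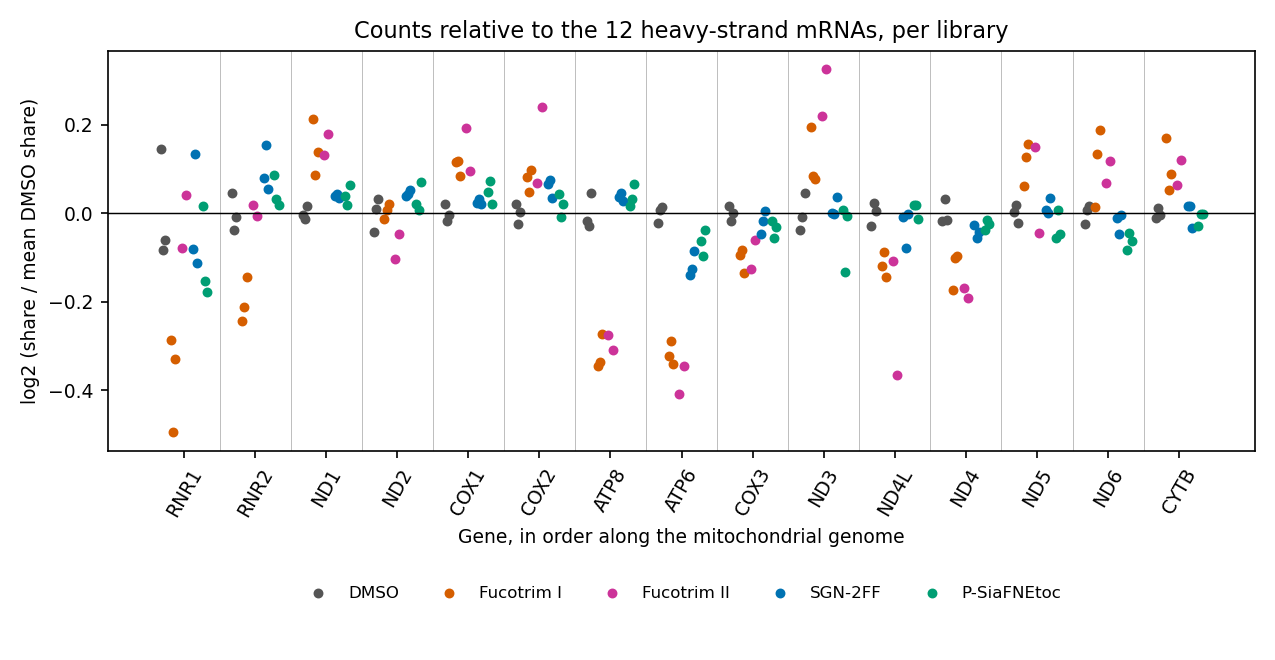
Counts of each mRNA and rRNA relative to the 12 heavy-strand mRNAs of the same library, as the log2 ratio to the mean of DMSO (y axis), in the order of the genome (x axis), with 1 point per library and 1 colour per treatment. ATP6 and ATP8 lie at -0.32 and -0.32 on average with Fucotrim I and ATP6 at -0.38 with Fucotrim II, and ND1 lies above DMSO with each inhibitor.

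The edgeR fit was repeated with each library scaled to these 12 mRNAs. No mRNA or rRNA passed it with any inhibitor. The standard errors of the mRNAs were then 0.28 with Fucotrim I, 0.29 to 0.33 with Fucotrim II, 0.10 with SGN-2FF and 0.10 to 0.11 with P-SiaFNEtoc, so differences of the sizes above were not detectable in this fit. Among the genes that reached the filter's minimum in DMSO alone, TRNY was called higher with Fucotrim I (0.218% of all genes tested were called higher), with Fucotrim II (0.349%) and with SGN-2FF (0.887%), and 0 members were with P-SiaFNEtoc (1.21%). This scaling put the median log2 fold change of all genes at -0.91, -1.32, -0.43 and -0.05 with Fucotrim I, Fucotrim II, SGN-2FF and P-SiaFNEtoc. With Fucotrim I, 11285 of 14188 genes were called, and 31 of these were higher. The small shares called higher thus depend on the scaling and do not measure how unusual TRNY was. The call of TRNY with Fucotrim I was lost without DMSO replicate 1, at an adjusted p of 0.218 from edgeR.

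By strand, ND6 differed from the 12 heavy-strand mRNAs by at most 0.11 on the log2 scale. It was at 2.21, 2.26 and 2.27 percent in DMSO, 2.27, 2.47 and 2.56 with Fucotrim I, 2.36 and 2.44 with Fucotrim II, 2.23, 2.17 and 2.24 with SGN-2FF and 2.12, 2.18 and 2.15 with P-SiaFNEtoc, as a share of their counts. The Fucotrim II libraries lay above DMSO, those of P-SiaFNEtoc below, and the others overlapped. The differences from DMSO in the log2 ratio were 0.11, 0.09, -0.02 and -0.06 with Fucotrim I, Fucotrim II, SGN-2FF and P-SiaFNEtoc, with two-sided exact permutation p-values of 0.2, 0.2, 0.4 and 0.1 (0.3, 0.3, 0.48 and 0.3 adjusted over the 12 tests). In the 14 libraries ND6 had 0.274 to 0.325 counts per count of ND5, its neighbour on the other strand, and 0.945 to 1.12 times as many counts per base. The strand setting of the counting is not given in the sources used here, so reads of ND6 and reads from the opposite strand at the same place cannot be told apart.

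Relative to the same mRNAs, the 2 rRNAs together were lower with Fucotrim I by 0.22 on the log2 scale, with the 3 libraries below all 3 DMSO libraries (exact permutation p = 0.1, adjusted 0.3). With Fucotrim II, SGN-2FF and P-SiaFNEtoc the differences were 0.003, 0.09 and 0.03, and the libraries overlapped (exact p = 1, 0.2 and 0.4, adjusted 1, 0.3 and 0.48). RNR1, the smaller part of this sum, was at 1.44, 1.23 and 1.25 percent in DMSO, 1.07, 0.925 and 1.04 with Fucotrim I, 1.24 and 1.34 with Fucotrim II, 1.23, 1.43 and 1.21 with SGN-2FF and 1.32, 1.17 and 1.15 with P-SiaFNEtoc, as a share of the mRNA counts. RNR2 was at 11.8, 11.1 and 11.3 percent in DMSO, 9.63, 9.85 and 10.3 with Fucotrim I, 11.6 and 11.3 with Fucotrim II, 12.1, 12.7 and 11.8 with SGN-2FF and 12.1, 11.7 and 11.6 with P-SiaFNEtoc. Both lay below DMSO with Fucotrim I, and RNR2 lay above it with SGN-2FF. RNR1 had 0.110 to 0.122 counts per count of RNR2 in DMSO and 0.0998 to 0.109 with P-SiaFNEtoc, the one inhibitor without overlap in this ratio.

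The difference in share from DMSO across the 12 heavy-strand mRNAs and the start of the gene had Spearman's rho of -0.11 with Fucotrim I, -0.21 with Fucotrim II, -0.64 with SGN-2FF and -0.62 with P-SiaFNEtoc (n = 12 genes, Pearson's r -0.05, -0.08, -0.35 and -0.59). With the 2 rRNAs included (n = 14 genes) rho was 0.25, -0.13, -0.53 and -0.34 and r was 0.33, -0.09, -0.38 and -0.15. These are descriptions across genes that share libraries and precursor RNAs, and the 4 values share the DMSO libraries. Among the mRNAs, ATP8, ATP6, COX3, ND4L and ND4, in the middle of the genome, lay below DMSO with both Fucotrim inhibitors, while ND3, which lies between COX3 and ND4L, was above DMSO.

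In DMSO the levels per length of the mRNAs lay between 2135 and 10570 CPM per kilobase. Only with RNR1, an rRNA, did the span exceed an order of magnitude. COX2 was highest, with 10570 ± 860 CPM per kilobase (SD, n = 3), followed by ND4 (7213 ± 856), COX1 (7198 ± 625), COX3 (6458 ± 555) and ATP6 (6329 ± 636). ND4L, RNR2, ATP8, CYTB and ND1 followed at 3962, 3915, 3665, 3450 and 2960 CPM per kilobase, and ND5, ND6, ND2 and ND3 at 2296, 2292, 2223 and 2135. RNR1 was lowest at 732 ± 63.9 CPM per kilobase (SD, n = 3). Among neighbours in this order, the ranges over the DMSO libraries were apart only for COX2 and ND4, ATP6 and ND4L, ND1 and ND5, and ND3 and RNR1. For ND4 and COX1, COX3 and ATP6, ND4L and RNR2, and ND5 and ND6 the mean difference within a library was smaller than its own SD. Identical copies elsewhere in the genome can take reads from some genes, since 27.9% of the 100-base windows of COX1, 26.1% of ND2, 21.2% of RNR1, 11.9% of ATP6, 10.97% of ND1, 4.67% of COX3 and 2.39% of COX2 occur again outside chromosome M, and 0% for the other mRNAs and RNR2.

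Most tRNAs had too few counts to be tested. TRNG, TRNI, TRNK, TRNN, TRNQ and TRNR had 0 counts in all 14 libraries, which allows up to 3 counts in each, or 0.144 to 0.251 CPM, by counting error alone, per library. TRNA, TRND, TRNS1 and TRNW had at most 1 count in any library. TRNE (1 to 9 counts), TRNL2 (0 to 7), TRNS2 (0 to 9), TRNT (2 to 16) and TRNV (0 to 6) failed the filter in all 4 comparisons. Thus 15 of the 22 tRNAs were tested with no inhibitor. TRNC, TRNF, TRNP and TRNY passed in every comparison, TRNL1 in the 3 with fucosylation inhibitors, and TRNH and TRNM with Fucotrim II only.

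**Figure D4:**
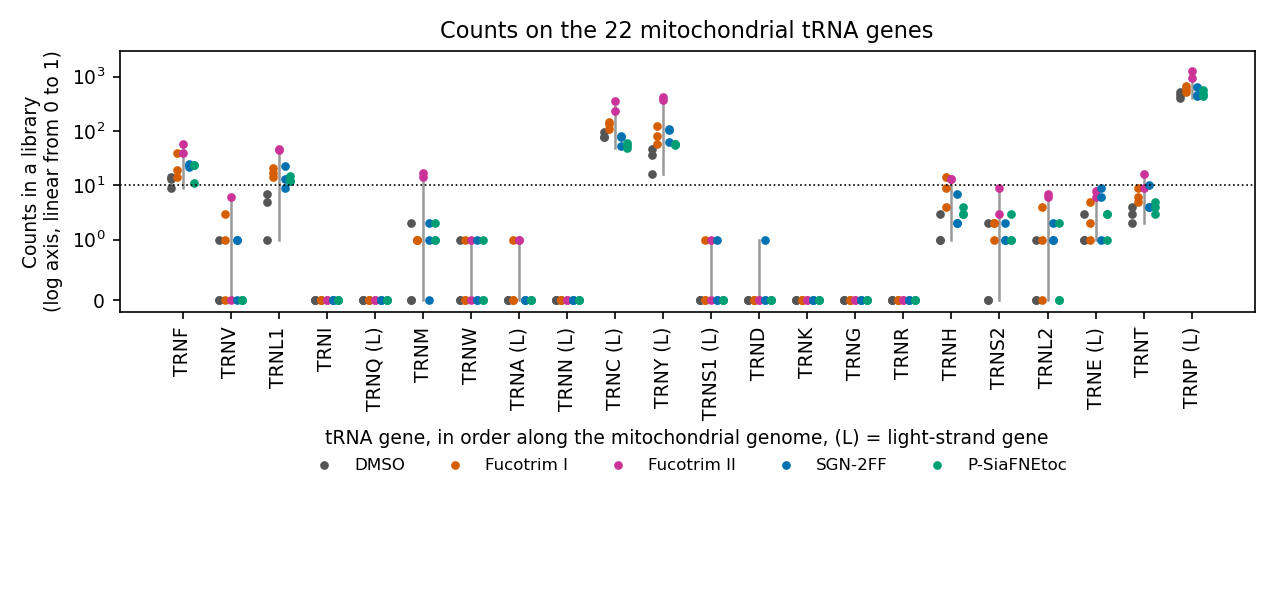
Counts on each of the 22 tRNA genes (y axis, log axis that is linear from 0 to 1) in the order of the genome (x axis), with 1 point per library and 1 colour per treatment. Grey lines span the lowest to the highest library and the dotted line marks 10 counts. TRNP, TRNY and TRNC stand above the others, and 6 genes lie at 0 in every library.

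TRNP, TRNY and TRNC are all light-strand genes and together held 90.7% to 96.7% of the tRNA counts of a library. TRNP and TRNF border the long stretch without genes, so that 616 and 647 bases including the gene belong to no other gene there, against 96 for TRNC and 77 for TRNY. The same length was 105 for TRNN and 96 for TRNK, which had 0 counts, and 77 for TRNA, which had at most 1. TRNF had 9 to 58 counts in a library and TRNC 49 to 354. Whether this length bears on the counts was not tested. Whether a read comes from a mature tRNA or from a precursor cannot be told from the counts.

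TRNP was at 456, 522 and 410 counts in DMSO, 523, 599 and 665 with Fucotrim I, 1282 and 934 with Fucotrim II, 443, 651 and 463 with SGN-2FF and 572, 433 and 481 with P-SiaFNEtoc. Its log2 fold changes were 0.74, 1.28 and 0.45 with Fucotrim I, Fucotrim II and SGN-2FF, all past the threshold (adjusted p = 0.00276, 0.000111 and 5.23e-05 from edgeR), and 0.09 with P-SiaFNEtoc (adjusted p = 0.391). TRNP had 6.58 to 6.98 counts per 1000 counts of CYTB, the nearest mRNA, in DMSO. That ratio was lower with Fucotrim I (5.03 to 5.95) and with Fucotrim II (5.80 to 6.21), without overlap.

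TRNY was at 16, 46 and 36 counts in DMSO, 81, 58 and 124 with Fucotrim I, 367 and 418 with Fucotrim II, 109, 103 and 63 with SGN-2FF and 57, 56 and 58 with P-SiaFNEtoc. DMSO replicate 1 was lowest and the Fucotrim II libraries were highest by a wide margin. The log2 fold changes were 1.80, 3.59, 1.77 and 0.80 with Fucotrim I, Fucotrim II, SGN-2FF and P-SiaFNEtoc (standard errors 0.53, 0.24, 0.32 and 0.26, adjusted p = 0.0400, 1.01e-05, 0.00412 and 0.0393 from edgeR). TRNY was the one member called higher with P-SiaFNEtoc, but its adjusted p from edgeR or another tool rose up to 0.325 under other settings, up to 0.125 with Fucotrim I and up to 0.0619 with SGN-2FF. Without DMSO replicate 1, the log2 fold change of TRNY with P-SiaFNEtoc was 0.44 (adjusted p = 0.154 from edgeR). Per 1000 counts of COX1 there were 0.0819 to 0.217 counts of TRNY in DMSO, 0.165 to 0.359 with Fucotrim I, 0.576 to 0.935 with Fucotrim II, 0.307 to 0.550 with SGN-2FF and 0.251 to 0.304 with P-SiaFNEtoc. The range with Fucotrim I overlapped that of DMSO and the other 3 lay above it (exact permutation p = 0.2 for Fucotrim II and 0.1 for SGN-2FF and P-SiaFNEtoc).

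TRNC, which shares 1 base with TRNY and is read in the same direction, did not move with it in each comparison. It was at 76, 95 and 76 counts in DMSO, 110, 147 and 133 with Fucotrim I, 354 and 232 with Fucotrim II, 54, 80 and 77 with SGN-2FF and 56, 60 and 49 with P-SiaFNEtoc. It rose with Fucotrim I (log2 fold change 1.02, adjusted p = 1.35e-05 from edgeR) and with Fucotrim II (1.85, adjusted p = 0.000105), had a log2 fold change of 0.06 with SGN-2FF (adjusted p = 0.836) and fell with P-SiaFNEtoc (-0.58, adjusted p = 0.0137). That fall kept its direction under every setting tried and its adjusted p-value reached 0.122. Relative to COX1, TRNC was at 0.389 to 0.458 counts per 1000 in DMSO, lower with SGN-2FF (0.273 to 0.375) and P-SiaFNEtoc (0.247 to 0.300), higher with Fucotrim II (0.519 and 0.555) and overlapping with Fucotrim I (0.385 to 0.459).

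**Figure D5:**
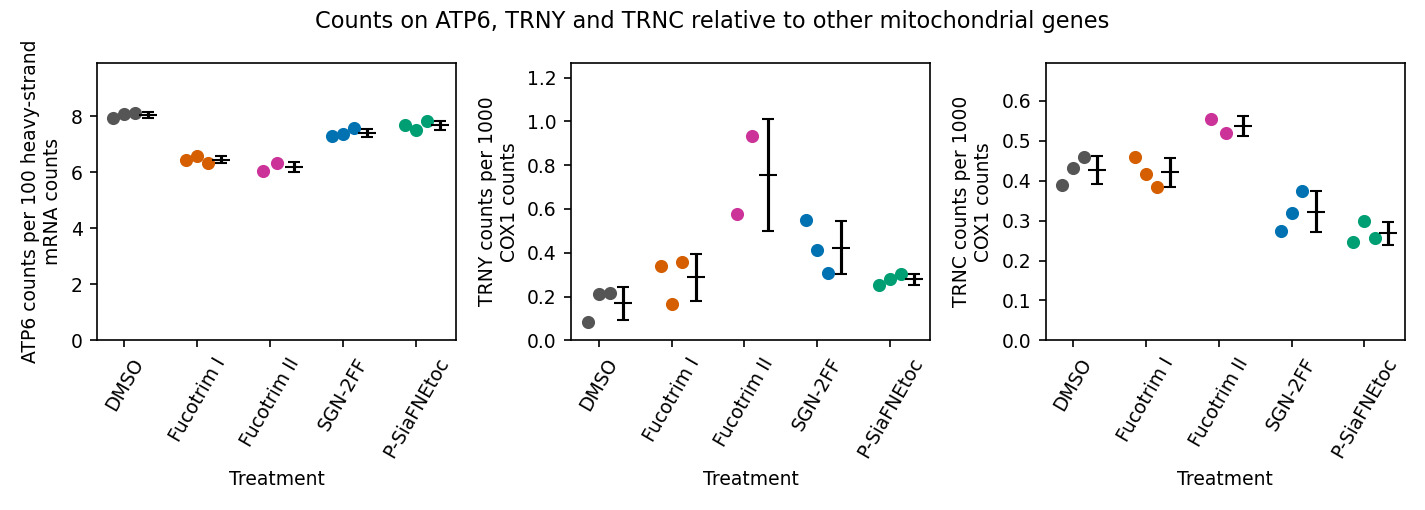
Counts of ATP6 per 100 counts on the 12 heavy-strand mRNAs (left), and counts of TRNY (middle) and TRNC (right) per 1000 counts of COX1 (y axes), for each treatment (x axes). Points are libraries and black bars the mean ± SD. ATP6 lies below the DMSO range of 7.93 to 8.12 with every inhibitor, and TRNY lies above and TRNC below DMSO with SGN-2FF and P-SiaFNEtoc.

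TRNL1 lies between RNR2 and ND1 on the heavy strand. It was at 1, 7 and 5 counts in DMSO, 17, 14 and 21 with Fucotrim I, 45 and 47 with Fucotrim II, 13, 23 and 9 with SGN-2FF and 12, 12 and 15 with P-SiaFNEtoc. The DMSO libraries held 7 counts at most, and all treated libraries held more. It passed the filter with the 3 fucosylation inhibitors only through the treated libraries, so its test is not given. With P-SiaFNEtoc it failed the filter.

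TRNF, the first gene downstream of the heavy-strand promoter region, was at 9, 14 and 13 counts in DMSO, 14, 19 and 40 with Fucotrim I, 40 and 58 with Fucotrim II, 22, 24 and 25 with SGN-2FF and 24, 24 and 11 with P-SiaFNEtoc. With Fucotrim II it rose by 2.03 on the log2 scale (adjusted p = 0.000448 from edgeR, reaching 0.00324 under other settings). With the other 3 inhibitors it passed the filter only with the help of the treated libraries, and its log2 fold changes of 1.39, 1.26 and 0.70 with Fucotrim I, SGN-2FF and P-SiaFNEtoc are given with no test. The value with Fucotrim I was 0.73 without Fucotrim I replicate 3 and at most 1.69 under the other settings. TRNH, the tRNA for histidine, was at 1, 3 and 1 counts in DMSO, 9, 4 and 14 with Fucotrim I, 13 and 13 with Fucotrim II, 2, 7 and 2 with SGN-2FF and 4, 3 and 3 with P-SiaFNEtoc. TRNM, the tRNA for methionine, was at 0, 0 and 2 counts in DMSO, 1, 1 and 1 with Fucotrim I, 14 and 17 with Fucotrim II, 1, 2 and 0 with SGN-2FF and 2, 1 and 1 with P-SiaFNEtoc. For TRNM the Fucotrim II libraries held 31 counts in all against 2 in DMSO. TRNH and TRNM passed the filter with Fucotrim II only through the treated libraries, so their tests are not given.

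Nuclear genes supply the proteins that act on mitochondrial RNA. Of a list of 31 factors for transcription, processing and decay of mitochondrial RNA, 2 were called higher and 9 lower with Fucotrim I, 3 and 17 with Fucotrim II, 1 and 3 with SGN-2FF and 0 and 3 with P-SiaFNEtoc. Of all genes tested, 21.6% were called higher and 22.1% lower with Fucotrim I, 25.6% and 25.7% with Fucotrim II, 11.5% and 9.08% with SGN-2FF, and 9.02% and 7.33% with P-SiaFNEtoc. The median log2 fold change of the list was -0.08, -0.23, 0.01 and -0.06. TFAM, which packages mitochondrial DNA and is needed to start transcription, fell by 0.37 with Fucotrim I and fell by 0.68 with Fucotrim II on the log2 scale (adjusted p = 0.000626 and 0.000418 from edgeR). FASTK, of which one form is needed for ND6 mRNA, rose by 0.40 and 0.56. Of 18 nuclear-encoded subunits of the respiratory chain and ATP synthase, 4 were higher and 3 lower with Fucotrim I, 3 and 10 with Fucotrim II, and 2 and 0 with SGN-2FF and with P-SiaFNEtoc, with medians of -0.04, -0.18, 0.04 and 0.04, to be read against the same shares of all genes. Among them NDUFS1 of complex I fell by 0.29 with Fucotrim I and fell by 0.57 with Fucotrim II. The other of the 2 largest called changes was a rise in both cases. COX5B rose by 0.24 with Fucotrim I, and NDUFV1, also of complex I, rose by 0.47 with Fucotrim II.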

How the data were processed

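The authors prepared libraries with the Illumina TruSeq Stranded mRNA kit, and processed the reads in Galaxy, using Cutadapt for trimming, HISAT2 for mapping to hg38 and featureCounts for counting per gene. The 4 deposited tables hold these raw counts as whole numbers, with the same DMSO libraries in each. The strand setting, the treatment of reads with several matches and the annotation release are not given in the sources used here.

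Each inhibitor was compared with DMSO in its own fit with edgeR 4.0.16 (R 4.3.3, limma 3.58.1): filterByExpr (minimum count 10), TMM scaling, the quasi-likelihood test and Benjamini-Hochberg adjustment over all genes tested, with calls at 0.05. CPM come from all 14 libraries scaled together. Per-library ratios were compared by two-sided exact permutation tests (scipy 1.17.1). DESeq2 1.42.0 and limma-voom were alternatives, as were other scalings, filters, thresholds and libraries left out. All 37 members are accounted for, with values in every library for those tested. From the lists of mitochondrial RNA factors and nuclear-encoded subunits only the 2 largest called changes could be named. The members and lists were chosen with earlier results of these data known.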

Additional observations from a re-analysis of the deposited data

How the results depend on the processing

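Over all members tested, the number of mitochondrial genes called with Fucotrim I was 15. It became 3 at an adjusted p under 0.01, 8 with a replicate block and 11 without the filter on low counts. When single libraries were left out it was 3 to 18. It was 20 of 20 tested by DESeq2 and by limma-voom, the method of the study, and 21 of 23 with all 14 libraries in 1 fit. ND4, ATP6, ATP8, RNR1 and RNR2, not called in the main fit, were called by DESeq2 and limma-voom. With SGN-2FF it was 19 and became 2 with all 14 libraries in 1 fit and 3 when a log2 fold change beyond 0.58 was also required, with 15 to 19 without single libraries. With P-SiaFNEtoc it was 2 and became 0 by DESeq2, 0 with all 14 libraries in 1 fit and 0 at an adjusted p under 0.01, with 1 to 6 without single libraries (6 without DMSO replicate 2). With Fucotrim II it was 22 and lay between 18 and 25. The main counts with the fucosylation inhibitors include tRNAs that reached the filter's minimum only through treated libraries. Among genes that reached it in DMSO alone, 13, 19 and 17 were called higher with Fucotrim I, Fucotrim II and SGN-2FF. Of all genes tested, 21.6%, 25.6% and 11.5% were called higher. With P-SiaFNEtoc 1 was called higher and 1 lower, against 9.02% and 7.33% of all genes. In the fit scaled to the heavy-strand mRNAs, the count with Fucotrim I was 2, or 0 to 3 without single libraries. Of the 2, TRNL1 reached the filter's minimum only through treated libraries, while TRNY reached it in DMSO alone. With P-SiaFNEtoc the count in that fit was 0, or 2 with the replicate block and 0 to 2 without single libraries. The causes were not tested. The replicate numbers were not taken as pairs, since same-numbered libraries deviated together with correlations of -0.255 to 0.157 by the numbers in the titles (0.255 and 0.078 for the Fucotrim II libraries by their library names, which differ from the titles), and the replicate block changed no other of these counts by over 1.5 times. No called value changed sign. The mitochondrial share of counts kept its direction with the 3 fucosylation inhibitors and lay between -0.0136 and 0.513 percentage points from DMSO with P-SiaFNEtoc. The rRNA to mRNA ratio crossed 0 with Fucotrim II (-0.0180 to 0.0318 in log2) and kept its direction otherwise, as did the ND6 ratio. Leaving out single libraries from the gene shares was chosen after seeing the data. Counts of under 10 limit most tRNAs.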
